A study of Mus musculus with 6 samples.

Results

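The 10 genes described here encode the 6 peroxiredoxins (Prdx1 to Prdx6), cytosolic thioredoxin (Txn1) and its reductase (Txnrd1), and the cytosolic and mitochondrial superoxide dismutases (Sod1 and Sod2). They were taken by symbol from the 20409 features of a count table of mouse duodenal villus epithelium, and all 10 had counts in every mouse. Bulk RNA-seq of polyadenylated RNA was available for 3 double mutant (DMV) and 3 wild-type (WTV) villus preparations, with 1 library per mouse. The double mutants carried Smad4 fl/fl and Ctnnb1 exon3 fl/wt alleles with Villin-CreERT2, so that tamoxifen removes Smad4 and yields a stabilised beta-catenin throughout the intestinal epithelium. Tamoxifen was given intraperitoneally at 0.05 g/kg on 4 consecutive days, and villi were taken 7 days after induction. The wild-type mice were littermates that received no injection, so that the effect of tamoxifen cannot be told apart from that of the alleles. All mice were on a background enriched for C57BL6, their age is not given in the sources used here beyond being matched between the groups, and replicate 1 of each group was male and replicates 2 and 3 female.

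Superoxide, which leaks from the respiratory chain or is made by oxidases, is turned into hydrogen peroxide by the superoxide dismutases. Peroxiredoxins then reduce the peroxide with a reactive cysteine, and most of them are returned to the reduced state by thioredoxin, which thioredoxin reductase recharges with electrons from NADPH. The family members work in different places: Prdx1, Prdx2 and Prdx6 mainly in the cytosol, Prdx3 in mitochondria, Prdx4 in the endoplasmic reticulum, and Prdx5 in several compartments including mitochondria and peroxisomes. Prdx6 differs from the others in having a single catalytic cysteine that is recycled by glutathione rather than thioredoxin, and it also has phospholipase activity. The study examined PRDX3 and PRDX6 protein in the mutant villi together with mitochondrial proteins, which raises the question of how the RNA of the whole system differed.

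Between 19678507 and 26337318 counts were assigned per mouse. CPM is the count of a gene relative to its library's total, and all levels here are CPM scaled by TMM factors, which correct for differences in RNA composition. On this scale 3 counts, taken as the floor, corresponded to 0.125 to 0.163 CPM. Smad4 was 120, 180.1 and 145 CPM in the WTV mice and 26.1, 36.8 and 32.1 CPM in the DMV mice. Ctnnb1 was not called different (log2 fold change -0.15, edgeR adjusted p = 0.359), and a count over the whole gene does not show whether exon 3 was removed. Red cell markers summed to at most 0.751 CPM over the 3 of 9 that were listed. The 7 of 8 stromal markers listed, led by Vim, were low but apart between the groups, at 1.75 to 3.16 CPM in sum in WTV and 3.66 to 5.82 CPM in DMV, and neither of the 2 that could be tested was called; their part in the results was not tested. The WTV replicate 1 library stood apart in that 8 goblet cell markers summed to 125 CPM there, against 11039 and 11616 CPM in the other WTV mice and 4669 to 5064 CPM in the DMV mice. Paneth cell markers were likewise low in it, at 5.54 CPM against 634 and 1074 CPM.

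Prdx6, Prdx3 and Prdx4 were higher in double mutant villi, and none of the 10 genes was called lower. The call was made with edgeR's quasi-likelihood test at a Benjamini-Hochberg adjusted p under 0.05 over 13346 genes. In the same test 36.8% of all genes were called, 19.7% higher and 17.0% lower, and the count of 3 in 10 is read against that share, not as particular to these genes. DESeq2 also called 3 of the 10 higher and 0 lower, and at an unadjusted p under 0.05 edgeR gave 4 higher and 0 lower. The shares over all genes under these other rules are not given here, so these counts are not read as a result about the 10 genes. The groups did not overlap for 4 of the 10 genes, Txn1 being the fourth, whereas over all genes 52.4% did not overlap. The median log2 fold change of the 10 was 0.05, beside 0.02 for all tested genes. Only the Prdx6 call was kept whichever mouse was left out: 3 of the 10 were called without DMV replicate 3, 2 without DMV replicate 1 or WTV replicate 1, and 1 without DMV replicate 2, WTV replicate 2 or WTV replicate 3. The plot of levels by mouse shows each gene on its own scale.

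**Figure D1:**
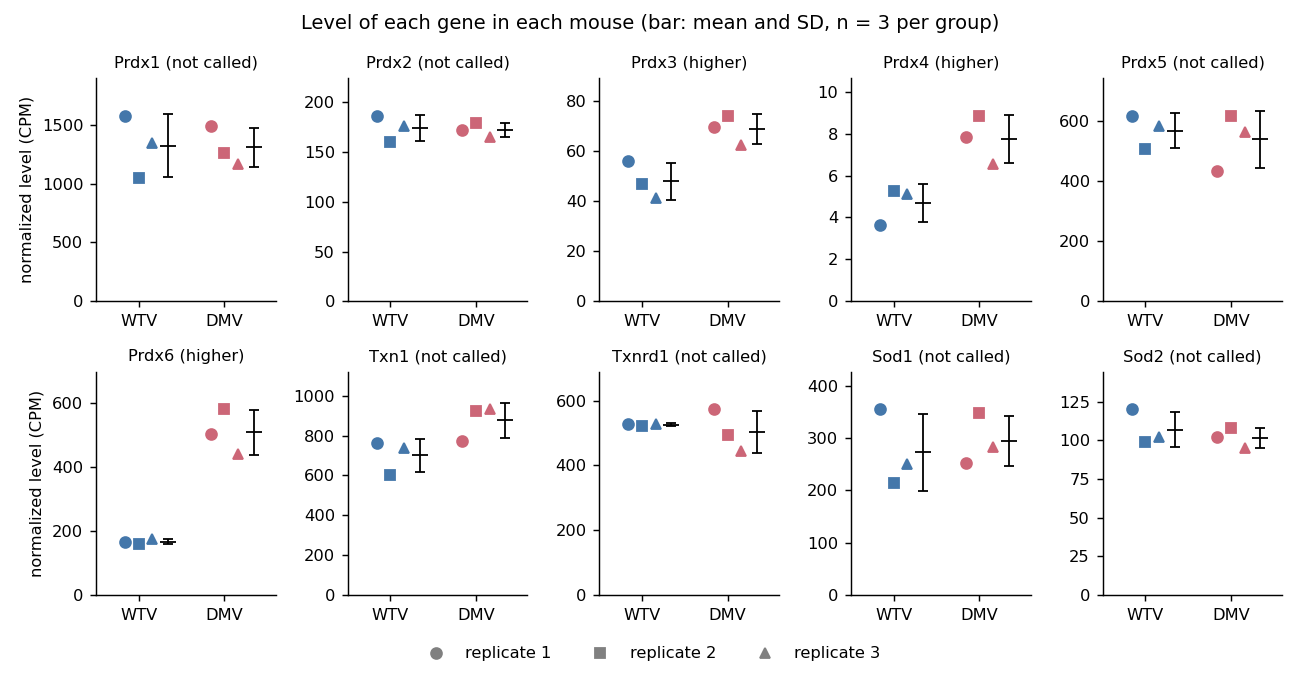
Normalized level (CPM, vertical axis from 0) of the 10 genes in 3 WTV (blue) and 3 DMV (red) mice, with marker shapes for replicate numbers and black bars for the mean and SD; the word in each title is the edgeR call. The 3 DMV mice lie above all 3 WTV mice for Prdx3, Prdx4, Prdx6 and Txn1, with the widest gap for Prdx6.

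Prdx6 (ENSMUSG00000026701, chromosome 1, 163170243 to 163181350, minus strand, mm9) showed the largest difference of the 10. Its level was 164, 159.6 and 176 CPM in the WTV mice and 501, 579 and 441 CPM in the DMV mice. The lowest mutant mouse was thus far above the highest wild-type mouse, while the WTV mice lay close together. The means were 167 ± 8.45 and 507 ± 69.2 CPM (SD, n = 3 each), a 3.04-fold difference (95% interval 2.48 to 3.73; edgeR adjusted p = 0.000117). Among the 13346 tested genes, 779 had a larger log2 fold change than Prdx6, which placed it at the 94.2 percentile. Leaving out any 1 mouse gave log2 fold changes from 1.496 to 1.700, and the value without WTV replicate 1 was 1.59 (adjusted p = 6.55e-05). In bulk RNA, a change in the number of cells of a type and a change in RNA per cell cannot be told apart, and this holds for every difference given here. The annotation names a further coding gene, Prdx6b, and a pseudogene, Prdx6-ps2, as copies of Prdx6. Neither has a row in the count table used here, and how reads matching several genes were counted is not given in the sources used here.

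The mitochondrial member, Prdx3 (ENSMUSG00000024997, chromosome 19, 60939954 to 60950459, minus strand), was higher by a smaller factor. The WTV mice gave 55.9, 46.8 and 41.1 CPM and the DMV mice 69.6, 74.2 and 62.5 CPM. The groups did not overlap, but the gap between the highest wild-type and the lowest mutant mouse was small beside that of Prdx6. The means of 48.0 ± 7.44 and 68.8 ± 5.87 CPM (SD, n = 3 each) corresponded to a 1.43-fold difference (95% interval 1.15 to 1.79; edgeR adjusted p = 0.0197). This call was lost without DMV replicate 2 (adjusted p = 0.0642), without WTV replicate 2 (0.0637) and without WTV replicate 3 (0.0738), and it was kept without WTV replicate 1, where the log2 fold change was 0.64 (adjusted p = 0.00516). Its log2 fold change of 0.52 lay at the 75 percentile of all tested genes.

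Prdx4 (ENSMUSG00000025289, chromosome X, 151758461 to 151775297, minus strand), which assists oxidative protein folding in the endoplasmic reticulum, was the least abundant of the 10 genes. It had 87 to 101 counts per WTV mouse and 138 to 191 counts per DMV mouse. As CPM these were 3.62, 5.28 and 5.11 in the wild-type mice and 7.84, 8.86 and 6.55 in the mutants, again without overlap. The difference was 1.66-fold (95% interval 1.16 to 2.38; edgeR adjusted p = 0.0343). With 1 mouse left out the call remained only without DMV replicate 3 (adjusted p = 0.0485), and it was lost without DMV replicate 1 (0.0792), DMV replicate 2 (0.125), WTV replicate 1 (0.0594), WTV replicate 2 (0.057) and WTV replicate 3 (0.0629). Prdx4 was lowest in WTV replicate 1, the library with few goblet and Paneth markers, and the part of these secretory cells in the Prdx4 value was not tested.

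Of the remaining peroxiredoxins, none passed the test, and for each the mice of both groups overlapped. Prdx1 (ENSMUSG00000028691, chromosome 4, 116358149 to 116373427, plus strand), a major cytosolic peroxidase, gave 1577, 1050 and 1341 CPM in WTV and 1491, 1259 and 1170 CPM in DMV. Its fold of 0.988 had a 95% interval of 0.756 to 1.29 (edgeR adjusted p = 0.943), so that changes of moderate size in either direction were not detectable. Prdx2 (ENSMUSG00000005161, chromosome 8, 87493486 to 87498733, plus strand), which is also the abundant peroxiredoxin of red cells, gave 187, 161 and 176 CPM in WTV and 172, 179 and 165 CPM in DMV. Its fold was 0.986 (95% interval 0.836 to 1.16; adjusted p = 0.895). Prdx5 (ENSMUSG00000024953, chromosome 19, 6981187 to 6984596, minus strand) gave 614, 504 and 582 CPM in WTV and 432, 616 and 563 CPM in DMV. The DMV replicate 1 mouse was the lowest of the 6, and the fold was 0.948 (95% interval 0.745 to 1.21; adjusted p = 0.724). Prdx2 overlaps Rnaseh2a, and Prdx5 overlaps Trmt112, each on the opposite strand. As the strand setting of the counting is not given in the sources used here, reads of the partners may be mixed, although Rnaseh2a had 120 to 234 counts per mouse and Trmt112 79 to 176, far fewer than the peroxiredoxins they overlap.

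Txn1 (ENSMUSG00000028367, chromosome 4, 57956245 to 57969283, minus strand), the cytosolic thioredoxin that reduces most peroxiredoxins, gave 760, 604 and 737 CPM in WTV and 773, 924 and 931 CPM in DMV. The groups did not overlap, but DMV replicate 1 lay just above WTV replicate 1, and the difference did not pass (log2 fold change 0.32, 95% interval 0.02 to 0.63; edgeR adjusted p = 0.0933). Scaled by library size alone, Txn1 passed at an adjusted p of 0.015, with a log2 fold change of 0.52; that scaling moved the median of all genes up by 0.19 on the log2 scale. Txnrd1 (ENSMUSG00000020250, chromosome 10, 82296696 to 82360469, plus strand), the selenoprotein that reduces thioredoxin, gave 528, 521 and 529 CPM in WTV and 573, 494 and 443 CPM in DMV. The 3 DMV mice lay on both sides of the tightly grouped WTV mice (fold 0.957, 95% interval 0.790 to 1.16; adjusted p = 0.715).

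Neither superoxide dismutase differed beyond the spread between mice. Sod1 (ENSMUSG00000022982, chromosome 16, 90220987 to 90226567, plus strand), the copper-zinc enzyme of the cytosol, gave 355, 214 and 250 CPM in WTV and 253, 347 and 284 CPM in DMV. The WTV mice alone spread widely, and the fold of 1.08 had a 95% interval of 0.785 to 1.48 (edgeR adjusted p = 0.7). The log2 fold change of 0.11 moved to 0.34 without WTV replicate 1 (adjusted p = 0.109), and it was -0.04 without WTV replicate 2 and -0.03 without DMV replicate 2. Sod2 (ENSMUSG00000006818, chromosome 17, 13200705 to 13210985, plus strand), the manganese enzyme of the mitochondrial matrix, gave 120, 99.0 and 102 CPM in WTV and 102, 108 and 95.1 CPM in DMV. Its fold was 0.95 (95% interval 0.790 to 1.14; adjusted p = 0.652). The interval for Sod2 thus excluded the 1.43-fold estimate found for Prdx3, also a mitochondrial enzyme, although the difference between the genes was not itself tested.

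**Figure D2:**
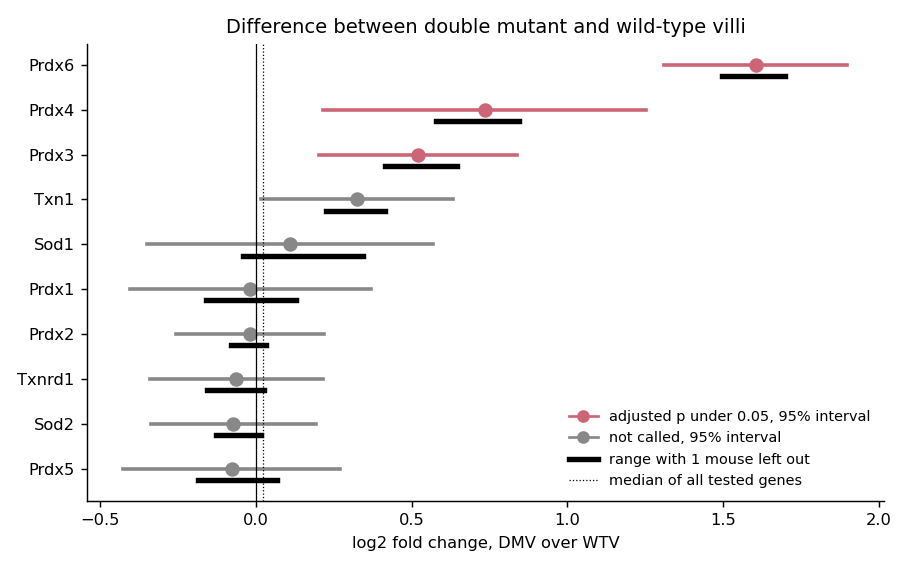
Log2 fold change of DMV over WTV (horizontal axis) for the 10 genes, with 95% intervals from edgeR's quasi-likelihood fit; black bars beneath give the range with 1 mouse left out, and the dotted line is the median of all tested genes. The interval of Prdx6 lies from 1.31 to 1.90, above those of all the other genes, and the intervals of 6 genes include 0.

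Compared per length, as CPM per kilobase (RPKM) over the transcript with the longest coding sequence, the 10 genes spanned a wide range. In WTV the order of mean levels was Txn1 (666 RPKM), Prdx1 (577), Prdx5 (449), Sod1 (422), Txnrd1 (145), Prdx2 (108), Prdx6 (69.8), Prdx3 (32.5), Sod2 (28.0) and Prdx4 (4.72). Neighbours from Txn1 down to Sod1 overlapped between mice, as did Prdx3 and Sod2, and the other neighbours did not. In DMV, Prdx6 moved from rank 7 to rank 5 at 212 RPKM, above Txnrd1 (139) and Prdx2 (107), and it overlapped neither Prdx5 above it nor Txnrd1 below it. Prdx3 (46.5 RPKM) and Sod2 (26.6 RPKM), which overlapped in WTV, did not overlap in DMV.

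The mix of peroxiredoxins in each mouse was then followed as the share of each in the summed RPKM of the 6, a measure that scaling between libraries does not alter. The sum was 1400, 1060 and 1262 RPKM in WTV and 1364, 1450 and 1292 RPKM in DMV, so that the groups overlapped in total. Prdx6 held 4.91%, 6.31% and 5.84% of the sum in WTV and 15.4%, 16.7% and 14.3% in DMV, a difference of 9.78 percentage points. Prdx1 held 46.2% ± 2.97 in WTV and 41.7% ± 5.26 in DMV (SD, n = 3 each), and Prdx5 held 36.3% ± 1.46 and 31.1% ± 5.21. The Prdx1 shares overlapped between the groups, and the Prdx5 shares were apart only by the narrow gap between 34.5% and 34.8%. The Prdx5 difference of -5.21 points was -2.21 without DMV replicate 1, and the Prdx1 difference of -4.54 points was -7.54 without DMV replicate 1 and -2.63 without DMV replicate 2. Prdx2 held 8.78% ± 0.569 and 7.80% ± 0.140, likewise without overlap. Prdx3 held 2.63% ± 0.396 in WTV and 3.40% ± 0.106 in DMV, and Prdx4 0.391% ± 0.122 and 0.570% ± 0.0534, both without overlap; the Prdx4 difference of 0.179 points was 0.114 without WTV replicate 1. The shares of a mouse always add up to the whole, so a larger share of Prdx6 pulls the other shares down. The lower shares of Prdx1, Prdx2 and Prdx5 are thus not separate results, and the levels of these genes overlapped between the groups. All shares are given as a description, with no test.

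**Figure D3:**
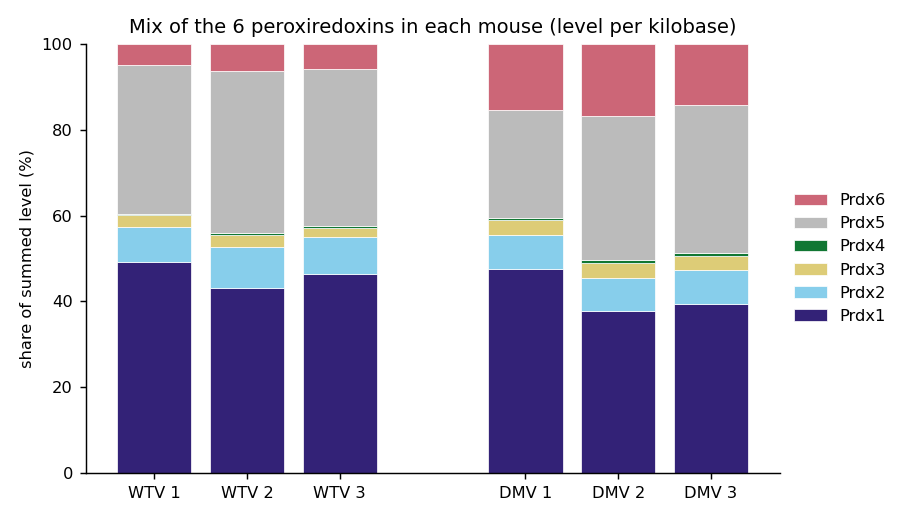
Share of each peroxiredoxin in the summed level per kilobase of the 6 (vertical axis, %), as stacked bars with 1 bar per mouse. The Prdx6 segment at the top takes 4.91 to 6.31% in the WTV mice and 14.3 to 16.7% in the DMV mice, and Prdx1 and Prdx5 together make up most of every bar.

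Ratios of gene pairs within a mouse were compared by exact two-sided permutation tests over mice, which cannot give a p below 0.1 with 3 against 3. The log2 ratio of Prdx3 to Prdx6 counts was -1.55, -1.77 and -2.10 in WTV and -2.85, -2.96 and -2.82 in DMV. The groups were apart, with a difference of -1.07 (exact permutation p = 0.1, the smallest possible; 0.5 after adjustment over the 5 ratios). The Sod2 to Sod1 ratio differed by -0.20 (exact p = 0.2) and Txn1 to Txnrd1 by 0.40 (exact p = 0.3), and with single mice left out these ran from -0.32 to -0.10 and from 0.26 to 0.58. Prdx3 to Tomm20, a gauge of Prdx3 against a mitochondrial import receptor, differed by -0.07 (exact p = 0.7), and the ratio of Txnip, an inhibitor of thioredoxin, to Txn1 differed by -0.26 (exact p = 0.6). Neither of these differences kept its sign when single mice were left out.

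Pink1 and Tomm20, which encode mitochondrial proteins that the study blotted or stained alongside PRDX3 and PRDX6, gave mixed RNA values. Tomm20, encoding an import receptor of the outer mitochondrial membrane, was 39.3, 31.6 and 40.7 CPM in WTV and 47.2, 59.3 and 62.9 CPM in DMV (log2 fold change 0.60; edgeR adjusted p = 0.0154). Its call was lost without DMV replicate 2 (adjusted p = 0.0543), DMV replicate 3 (0.0602) or WTV replicate 2 (0.0541). Pink1, a kinase that marks damaged mitochondria for removal, was 167, 175 and 174 CPM in WTV and 129, 151 and 160.1 CPM in DMV. Every DMV mouse lay below every WTV mouse for Pink1 on the TMM scale, but the difference did not pass (log2 fold change -0.23; adjusted p = 0.147). It was -0.14 without DMV replicate 1 (adjusted p = 0.342) and -0.04 with library size alone (adjusted p = 0.815). Of Prdx3, Prdx6, Pink1 and Tomm20, 3 were called higher and 0 lower, with a median log2 fold change of 0.56; their proteins were chosen by the study on such mice, so the count is not independent evidence of a direction. It fell to 1 without DMV replicate 2 or WTV replicate 2.

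A list of 10 genes for mitochondrial content held calls in both directions, beside 19.7% higher and 17.0% lower over all genes. Hspd1, a chaperone of the matrix, Tomm40 and Tomm20 were called higher and citrate synthase (Cs) lower, with 6 not called and a median log2 fold change of 0.26. Hspd1 was 94.2, 88.0 and 68.7 CPM in WTV and 192, 193 and 163 CPM in DMV (log2 fold change 1.12; edgeR adjusted p = 0.000757). In contrast, Cs was 1957, 1662 and 1681 CPM in WTV and 975, 1016 and 991 CPM in DMV (log2 fold change -0.83; adjusted p = 0.00114). Without DMV replicate 2 or WTV replicate 2 only 1 of the 10 was called higher, and with library size alone 6 were. The mitochondrial thioredoxin Txn2 and its reductase Txnrd2, which serve Prdx3, were not called different. Txn2 was 151, 112 and 122 CPM in WTV and 134, 153 and 129 CPM in DMV (log2 fold change 0.11; adjusted p = 0.551), and Txnrd2 was 22.8, 17.7 and 20.2 CPM in WTV and 19.7, 24.3 and 20.2 CPM in DMV (log2 fold change 0.08; adjusted p = 0.72).

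Markers of several cell types moved with the groups as well, and their part in the peroxiredoxin values was not tested. The counts of calls below stand beside 19.7% higher and 17.0% lower over all genes. Enterocyte markers summed to 48868 to 57427 CPM in WTV and 29495 to 33239 CPM in DMV, with 7 of 10 called lower and 1 higher. Stem and cycling cell markers summed to 84.4, 167 and 176 CPM in WTV and 363, 323 and 279 CPM in DMV, with 5 of 8 called higher; they were lowest in WTV replicate 1, as Prdx4 was. Tuft cell markers summed to between 91.0 and 126 CPM in WTV and between 12.9 and 13.9 CPM in DMV, with 5 of 5 called lower. Enteroendocrine markers summed to between 224 and 311 CPM in WTV and between 96.1 and 105 CPM in DMV, with 5 of 6 called lower. By the mean over all mice the most abundant genes of these lists were Anpep, Olfm4, Trpm5 and Chgb. Immune markers overlapped between the groups in their sum, which Cd74 dominates, at 711 to 2829 CPM in WTV and 1125 to 3162 CPM in DMV, and the sum was lowest in the males of both groups. Of the 8 tested immune markers 2 were called lower and 0 higher, with a median log2 fold change of -0.92. For so few genes 2 of 8 is near the 17.0% called lower over all genes, and it is not read as a result. Without WTV replicate 1 there were 6 called lower. Pancreatic acinar markers were at most 44.4 CPM in sum, and Clps was the most abundant of them only in WTV replicates 2 and 3.

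**Figure D4:**
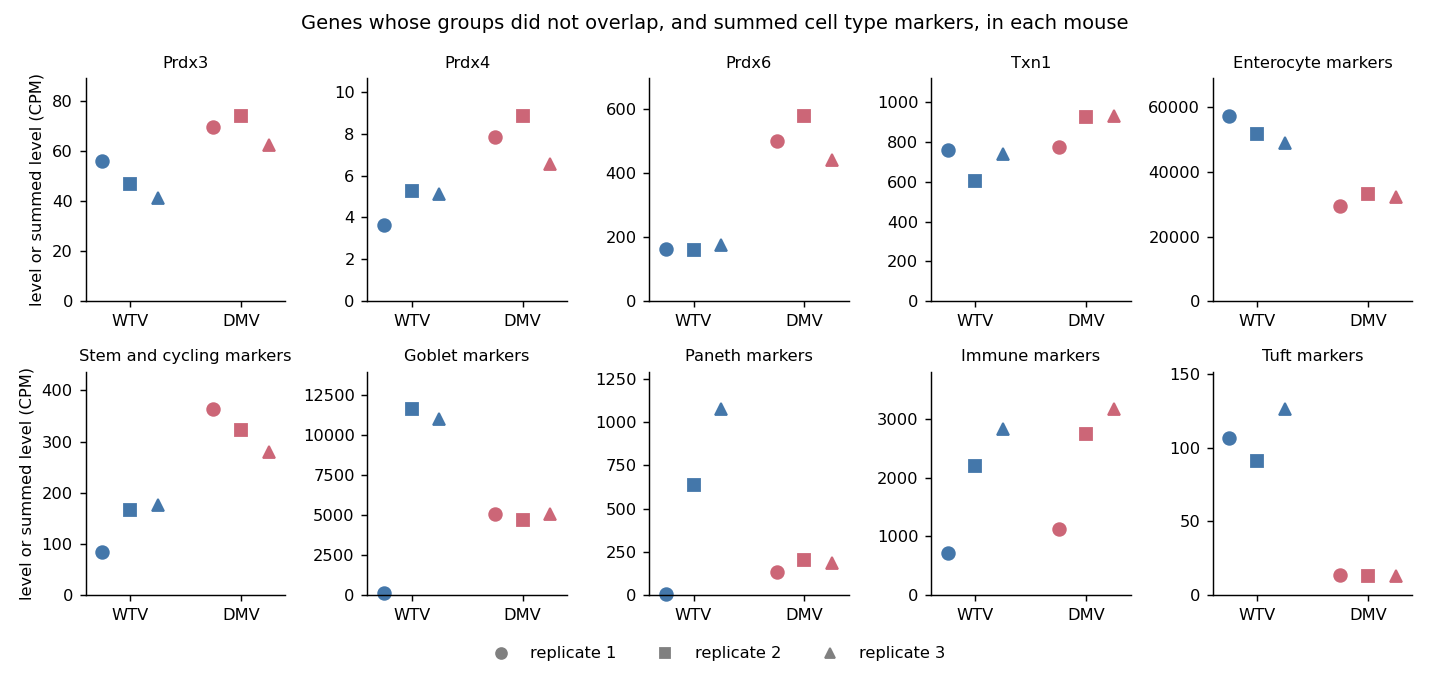
Level of Prdx3, Prdx4, Prdx6 and Txn1 and summed level of 6 cell type marker lists (CPM, each vertical axis from 0) in each mouse, with WTV in blue, DMV in red and marker shapes for replicate numbers. Enterocyte and tuft markers are lower and stem and cycling markers higher in all DMV mice, and WTV replicate 1 is near 0 for goblet and Paneth markers.

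Lists of genes around the peroxiredoxin system held calls in both directions, and their counts stand beside the 19.7% higher and 17.0% lower over all genes. Among 20 tested partners of the thioredoxin system, 4 were called higher, 2 lower and 14 not, with a median log2 fold change of 0.05. The share called higher is close to that over all genes and the share called lower is below it, so that neither is read as a result about the list. The highest call was Gsr, glutathione reductase, at 226, 283 and 249 CPM in WTV and 320, 455 and 375 CPM in DMV (log2 fold change 0.60; edgeR adjusted p = 0.0158). The most negative was Srxn1, sulfiredoxin, which repairs some overoxidised peroxiredoxins. It was 441, 494 and 504 CPM in WTV and 267, 289 and 258 CPM in DMV (log2 fold change -0.82, edgeR adjusted p = 0.000909). Every DMV mouse thus lay below every WTV mouse for Srxn1, and its relation to the peroxiredoxin levels was not tested. Txnip was not called different (log2 fold change 0.02; adjusted p = 0.957), and it ranged from 133 to 250 CPM among the WTV mice. The count of partners called higher was sensitive to single mice, at 0 without WTV replicate 3, 1 without WTV replicate 2, DMV replicate 2 or DMV replicate 3, and 2 without DMV replicate 1.

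Among 9 tested sources and handlers of superoxide, 2 were called higher, 3 lower and 4 not (median log2 fold change -0.08). The largest falls belonged to the hydrogen peroxide-producing oxidase of the apical surface. Duox2 was 1592, 1673 and 1639 CPM in WTV and 139, 208 and 162 CPM in DMV (log2 fold change -3.27; edgeR adjusted p = 1.66e-05). Its maturation factor Duoxa2 was 373, 414 and 372 CPM in WTV and 21.9, 36.0 and 28.6 CPM in DMV (log2 fold change -3.75). Cyba, a subunit of NADPH oxidases, was higher at 36.3 to 60.9 CPM in DMV against 11.4 to 24.3 CPM in WTV (log2 fold change 1.27; adjusted p = 0.017). Ccs, the copper chaperone of Sod1, did not pass (log2 fold change -0.08, edgeR adjusted p = 0.748), as Sod1 itself did not. The Ccs value ran from -0.19 without WTV replicate 3 to 0.14 without WTV replicate 1, so its sign is not settled. The count called higher was 4 without DMV replicate 1 or WTV replicate 3 and 1 without DMV replicate 2.

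A list of other peroxide-removing enzymes and selenoproteins held calls in both directions. Of 9 tested, 1 was called higher, 3 lower and 5 not, with a median log2 fold change of -0.40; the 3 lower were Cat, Gpx3 and Selenop, the last of which mainly transports selenium. Gpx1, the cytosolic glutathione peroxidase, was 141, 167 and 204 CPM in WTV and 657, 726 and 616 CPM in DMV (log2 fold change 1.97; edgeR adjusted p = 0.000114). Gpx2, the glutathione peroxidase typical of the gut epithelium, was not called different at 1219, 1289 and 1302 CPM in WTV and 861, 1460 and 1352 CPM in DMV (log2 fold change -0.05; adjusted p = 0.85). Catalase (Cat), the peroxisomal enzyme, was 522, 351 and 309 CPM in WTV and 237, 185 and 222 CPM in DMV (log2 fold change -0.88; adjusted p = 0.0106). Gpx3, the secreted glutathione peroxidase, had the most negative value, at 8.83 to 10.7 CPM in WTV and 0.657 to 0.997 CPM in DMV (log2 fold change -3.57). Gpx4, which reduces lipid peroxides, was 524, 339 and 389 CPM in WTV and 304, 349 and 295 CPM in DMV and did not pass (log2 fold change -0.40; adjusted p = 0.0927). The value moved with single mice, to -0.20 without WTV replicate 1 (adjusted p = 0.245) and to -0.53 without WTV replicate 2 (adjusted p = 0.048), and was -0.20 with library size alone (adjusted p = 0.341). The count of this list called higher was 2 without DMV replicate 1.

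Enzymes that supply NADPH, the electron source of thioredoxin reductase and glutathione reductase, held calls in both directions: of 9 tested, 2 were called higher, 3 lower and 4 not (median log2 fold change -0.22). The count called higher is near the 19.7% over all genes. Mthfd1, of the folate cycle, was 9.16, 11.2 and 12.3 CPM in WTV and 32.5, 32.2 and 30.5 CPM in DMV (log2 fold change 1.54; edgeR adjusted p = 0.000236). Malic enzyme Me1 was 252, 212 and 222 CPM in WTV and 72.3, 60.1 and 45.8 CPM in DMV (log2 fold change -1.95; adjusted p = 0.000176). Only 1 was called higher without DMV replicate 2, DMV replicate 3 or WTV replicate 2.

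**Figure D5:**
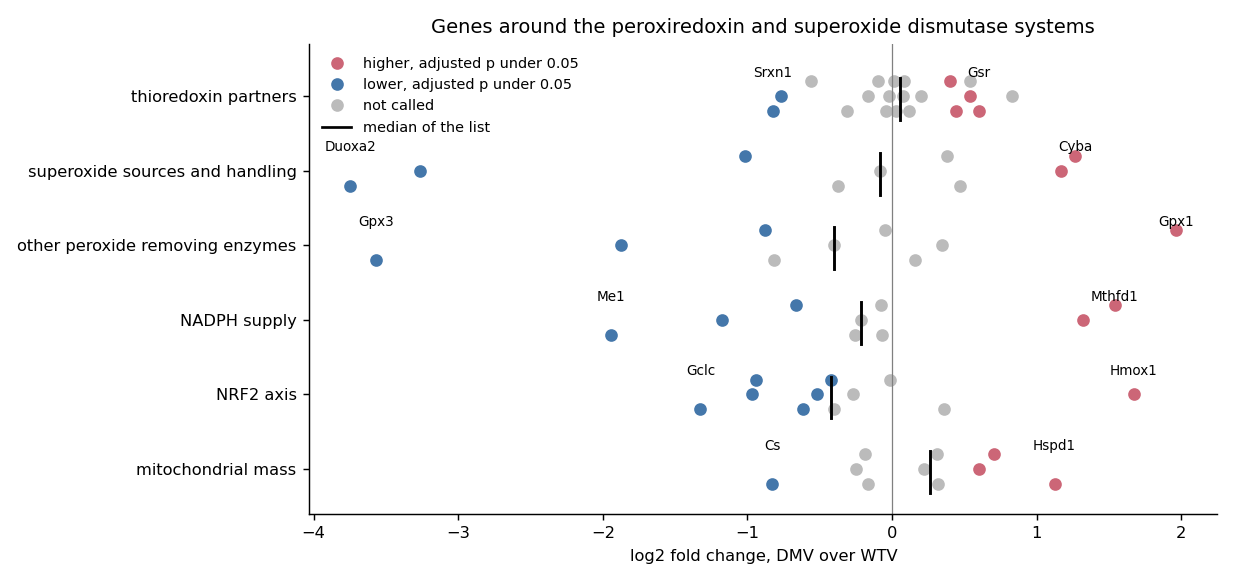
Log2 fold change of DMV over WTV (horizontal axis) of each tested gene in 6 lists of related genes, with red for called higher, blue for called lower and grey for not called by edgeR at an adjusted p under 0.05; black ticks are list medians and the named genes are the most positive and most negative calls. The NRF2 list has its median at -0.43 and the mitochondrial list at 0.26.

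NRF2 (Nfe2l2) is the transcription factor through which oxidative stress raises many antioxidant genes, and KEAP1 is its inhibitor. Of 11 tested genes of this axis, 1 was called higher, 6 lower and 4 not, with a median log2 fold change of -0.43. Of the 6, Gclc and Gclm are target genes of glutathione synthesis, Mafg, Mafk and Maff encode small partner proteins of NRF2, and Bach1 encodes a repressor of its targets. Nfe2l2 itself was 285, 294 and 250 CPM in WTV and 313, 278 and 232 CPM in DMV (log2 fold change -0.01; edgeR adjusted p = 0.957). Gclc, the catalytic subunit for glutathione synthesis, was 60.7, 59.0 and 68.2 CPM in WTV and 28.3, 24.4 and 22.3 CPM in DMV (log2 fold change -1.32; adjusted p = 0.000276). Keap1 (log2 fold change -0.27; adjusted p = 0.0921) and Nqo1, a quinone reductase widely used as an NRF2 target (-0.40; adjusted p = 0.0743), did not pass, although in both every DMV mouse lay below every WTV mouse, and the Nqo1 value ran from -0.25 without WTV replicate 3 (adjusted p = 0.241) to -0.53 without WTV replicate 2 (adjusted p = 0.0366). With library size alone Nqo1 was -0.21 (adjusted p = 0.345) and Keap1 -0.08 (adjusted p = 0.627). Hmox1, heme oxygenase, was the 1 gene called higher, at 0.583 to 1.52 CPM in WTV and 2.16 to 4.60 CPM in DMV (log2 fold change 1.67; adjusted p = 0.0189). That count was 0 without DMV replicate 2 or DMV replicate 3 and 2 without WTV replicate 1.

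The promoters of the genes were searched for the core of the antioxidant response element bound by NRF2, TGACNNNGC, on both strands of the 250 bases before each transcript start. RefSeq windows (GRCm38.p6) were matched for 9 of the 10 genes, in 11 windows; the gene without an entry was Prdx6. The core occurred in 10.2% of 32851 promoters and in 3 of the 11 windows, those of Prdx1 and Sod1 and 1 of the 3 Txnrd1 windows. None of these 3 genes was called different between the groups. Their sites are shown because they hold the core, and NRF2 activity at them was not tested. Each stretch is in the direction of transcription with 15 bases either side, and capitals mark the core, which lies on the opposite strand and so reads as its reverse complement. The first base of the core was 133 bases before the start for Prdx1, 92 for Txnrd1 and 56 for Sod1.
Prdx1, chr4:116358056-116358094, plus strand, mm9: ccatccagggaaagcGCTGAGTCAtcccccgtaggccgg
Txnrd1, chr10:82321844-82321882, plus strand, mm9: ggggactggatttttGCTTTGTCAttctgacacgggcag
Sod1, chr16:90220936-90220974, plus strand, mm9: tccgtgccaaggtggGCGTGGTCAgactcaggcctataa

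An E-box, CACGTG, the palindrome bound by MYC and related factors, was found in 6.02% of all promoters and in 1 of the 11 windows, that of Prdx4. The motif CTTTGAT of the TCF and LEF factors that work with beta-catenin was found in 3.21% of all promoters and in none of the 11 windows. Of the genes called higher, Prdx3 and Prdx4 had a window to search, and the Prdx4 window is shown because it held a motif. Its 250 bases match mm9 exactly once on the chromosome, lie within the annotated span of the gene, and carry the E-box, in capitals, from 52 bases before the RefSeq start.
Prdx4, chrX:151773004-151773253, minus strand, mm9: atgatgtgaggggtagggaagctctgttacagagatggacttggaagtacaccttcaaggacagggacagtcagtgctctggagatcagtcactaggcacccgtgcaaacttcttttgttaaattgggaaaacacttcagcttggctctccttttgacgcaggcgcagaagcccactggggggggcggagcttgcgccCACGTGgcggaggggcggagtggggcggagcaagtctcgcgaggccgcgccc
A match describes the letters of the window and shows neither binding nor its effect.

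Finally, the genes with the profiles most like those of the peroxiredoxins that the study blotted were listed, by the root mean square difference of log2 CPM over the 6 libraries after centring on the WTV mean. Nearest to Prdx6 were Nhp2l1 (difference 0.052), Rsl1d1 (0.077) and Rpl5 (0.080), which encode a small nucleolar and spliceosomal RNA-binding protein, a nucleolar protein and a protein of the large ribosomal subunit. Nhp2l1 rose from 9.77 ± 0.240 to 29.0 ± 3.55 CPM and Rpl5 from 80.5 ± 7.53 to 259 ± 39.6 CPM (SD, n = 3 each). Nearest to Prdx3 were Dnaja3 (0.049), a mitochondrial co-chaperone, Tbl2 (0.050) and Ndufaf4 (0.058), an assembly factor of respiratory complex I. Dnaja3 rose from 44.3 ± 6.24 to 63.2 ± 6.63 CPM and Ndufaf4 from 19.7 ± 2.70 to 29.2 ± 3.99 CPM (edgeR adjusted p = 0.0204 and 0.021). These neighbours were picked for likeness over the same 6 libraries, so their changes are a description and no further test.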

How the data were processed

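Counts per gene were analysed for 3 WTV and 3 DMV mice, grouped by the sample labels. The authors aligned cleaned paired-end reads of 150 bp from RNA with an integrity number above 4 to mm9 with HISAT2 v2.0.5 and counted them with featureCounts v1.5.0-p3; the deposited values are raw counts, without normalization or pooling. Of 20073 Ensembl identifiers, 20032 were found in the GENCODE vM1 annotation of mm9, and 336 other features are numbered transcripts outside it.

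Genes were filtered with filterByExpr, scaled by TMM and tested by edgeR 4.0.16 (glmQLFit robust, glmQLFTest, R 4.3.3), with p-values adjusted by Benjamini-Hochberg across the 13346 genes kept by the filter. Each standard error was taken as the absolute log2 fold change over the root of the F statistic. DESeq2 1.42.0 and limma 3.58.1 served as alternatives, besides other scalings, filters, covariates and each mouse left out. Ratios had 0.5 added to each count, and their exact tests used scipy 1.17.1. RPKM values were computed here. Floors and intervals cover counting error and spread among these mice only, since reads carry no molecular identifiers. The fits were tested on simulated data.

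The 10 genes and all lists were chosen with earlier results of these data known. The text names all 10, Pink1 and Tomm20, the most positive and most negative call of each list, 11 partners by name (Txnip, Srxn1, Txn2, Txnrd2, Cat, Gpx1, Gpx4, Ccs, Nfe2l2, Keap1 and Nqo1) whatever their value, and the 3 nearest profiles to Prdx3 and Prdx6. Duox2, Gpx2, Selenop, Tomm40, Gclm and other genes beyond that rule were named after their values were seen. A few genes of the lists are not reported here and were left out of their counts.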

Additional observations from a re-analysis of the deposited data

How the results depend on the processing

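Of the 10 genes, the call of Prdx6 held under every alternative run, with log2 fold changes from 1.496 to 1.797. Prdx3 and Prdx4 kept their direction under every alternative. Leaving out single mice, the number of the 10 called higher ran from 1 to 3, and the number called over all related lists from 5 to 15 higher (13 with all mice) and from 17 to 19 lower (18 with all mice); fewer mice were then fitted. Requiring an absolute log2 fold change of at least 1 left 1 of the 10 higher and, over the lists, 7 higher and 8 lower, as that rule drops smaller changes. Leaving out mice moved the Prdx3 to Tomm20 log2 difference between -0.247 and 0.078, and that of Txnip to Txn1 between -0.594 and 0.028, so that neither has a settled sign. On summed counts instead of levels per length, the Prdx6 share differed by 12.1 percentage points, the Prdx1 share by -7.39 and the Prdx4 share by 0.0861.

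Library size alone made 72.4% of all calls higher, against 53.7% with TMM, and called 20 genes of the lists higher; it moved the median of all genes by 0.19 on the log2 scale. Same-numbered mice of the groups did not deviate together (r = 0.0224, -0.109 and 0.0123 over 13346 genes for numbers 1, 2 and 3). Deviations from a group mean of 3 mice depend on each other, so these values cannot show whether the numbers pair the mice. The numbers do match in sex, with replicate 1 male in both groups. With a replicate block, 2 of the 10 genes were called higher, since Prdx4 reached an adjusted p of 0.0655, and 2 partners of the thioredoxin system in place of 4; over all lists 11 were higher and 17 lower. Depth limits Prdx4 most, with 87 counts in its lowest library. Leaving out single mice was planned, but counting marker lists without WTV replicate 1 and using other lengths were chosen after seeing the data. Without that mouse, 5 of 8 goblet markers were called lower and 1 higher, against 0 and 1 with all mice, and 2 of 6 Paneth markers lower and 1 higher, against 0 and 0. With lengths from the union of annotated exons, the Prdx6 share differed by 9.39 percentage points.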
